A study of Ovis aries with 7 samples.

Results

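FOS, JUN, JUNB, EGR1, MYC and ZFP36 are immediate early genes, and their transcripts were measured here in the hypothalamus of late-gestation sheep fetuses, 60 min after the start of a period of low oxygen. All probes that the array design assigns to these genes by gene name, or by description where the name is only an accession, were taken, which gave 15 of the 15008 probes and 6 of the 915 genes that carry a name. FOS had 4 probes, EGR1 had 3, and JUN, JUNB, MYC and ZFP36 had 2 each. JUN and MYC stand on the array under their older names C-JUN and C-MYC, and 1 EGR1 probe was found by its description as a bovine early growth response 1 match.

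Hypothalami came from chronically catheterised fetuses, each on an array of its own. In the hypoxia group (n = 3) the ewe breathed a gas low in oxygen for 30 min, and normal oxygen then returned for 30 min. In the control group (n = 4), of matched age, normal oxygen was kept for the same periods. The whole hypothalamus was taken as bulk tissue, in which fewer cells of a type and less RNA per cell cannot be told apart.

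Immediate early genes are transcribed within minutes of a stimulus without new protein synthesis, and their messages are short-lived. FOS and the JUN proteins pair to form the transcription factor AP-1, EGR1 is a zinc finger transcription factor of the same early wave, and FOS message is widely used in the brain as a marker of recently active neurons. MYC pairs with MAX to drive growth genes, while ZFP36 (tristetraprolin) binds AU-rich stretches in messages, FOS and cytokine messages among them, and hastens their decay.

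The probes are 60 bases long and are shown because they set what each value reports. They are printed 5′ to 3′ as the array files give them, and probes of a gene are numbered by their mean signal, brightest first. FOS probes 2 and 3 are the same sequence shifted by 1 base, with the 59 shared bases in capitals, and FOS probe 4 is a separate stretch.
FOS probe 2: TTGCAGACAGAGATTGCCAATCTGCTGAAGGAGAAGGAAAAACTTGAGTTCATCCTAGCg
FOS probe 3: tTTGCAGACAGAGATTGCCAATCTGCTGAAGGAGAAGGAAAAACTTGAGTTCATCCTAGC
FOS probe 4: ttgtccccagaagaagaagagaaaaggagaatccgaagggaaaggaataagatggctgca
The values of FOS probes 2 and 3 are therefore close to repeat readings of 1 stretch of message, and the 2 probes of JUNB likewise share 59 bases. EGR1 probes 1 and 3 share 22 bases, in capitals, and EGR1 probe 2 shares none with them.
EGR1 probe 1: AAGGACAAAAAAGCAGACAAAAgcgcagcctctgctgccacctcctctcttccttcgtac
EGR1 probe 2: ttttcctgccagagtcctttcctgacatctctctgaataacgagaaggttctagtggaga
EGR1 probe 3: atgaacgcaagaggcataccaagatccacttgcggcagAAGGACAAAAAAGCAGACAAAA
JUN probe 1 holds CAG repeated 5 times, in capitals, which no other of the 15008 probes does on the printed strand, and its GC content of 75% compares with a median of 43.3% over all probes. JUN probe 2 has no such repeat.
JUN probe 1: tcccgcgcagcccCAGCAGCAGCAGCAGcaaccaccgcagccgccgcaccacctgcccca
JUN probe 2: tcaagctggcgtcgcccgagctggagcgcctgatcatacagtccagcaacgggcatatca
The pentamer ATTTA, the core of the AU-rich stretches that ZFP36 binds in messages, was searched on the printed strand. It lies in FOS probe 1 and in the 20 bases that the MYC probes share, in capitals below, and in none of the other 12 member probes, while 8.04% of all probes hold it. A match describes the letters only and is not shown to be a binding site.
FOS probe 1, bases 31 to 60: acttgaatgaaaaATTTAagcattgtttgc
MYC probe 1, bases 41 to 60: agactgaaagATTTAgccat
The ZFP36 probes share no stretch with each other, and no member probe shares 20 bases in a row, on either strand, with a probe outside the 6 genes.
ZFP36 probe 1: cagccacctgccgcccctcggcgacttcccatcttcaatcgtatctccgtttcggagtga
ZFP36 probe 2: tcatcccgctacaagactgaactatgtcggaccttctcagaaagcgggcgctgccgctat

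A level is the log2 of a probe's processed signal minus the 75th percentile of that array, so that 0 is the 75th percentile and negative levels are dimmer. A difference is the mean level of the hypoxia arrays minus that of the control arrays, so that 1 would be a doubling. Levels of different probes were not set against each other, since probes differ in how strongly they bind. The share of spots detected well over their background was 83.1% to 84.8% in hypoxia and 77.2% to 86.4% in control, and it was lowest in control replicate 1. All hypoxia arrays lay on slide 1, which held no control, so that slide and hypoxia cannot be told apart. Slide 2 carried control replicates 1 and 2, and slide 3 carried control replicates 3 and 4. Of 9 hypothalamic markers tested, OXT, SST, AGRP and NPY among them, 8 were well above background on all 7 arrays. Of all 12711 tested probes 11434 were, so this count does not single out hypothalamic markers.

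Over all 15 probes, 11 were well above background on all 7 arrays and 14 were bright enough to be tested, that is, well above background on at least 3 arrays. No member spot was saturated or an outlier within its array. In limma, 0 of the 14 passed a Benjamini-Hochberg adjusted p of 0.05 over all 12711 tested probes, as did 0.0157% of all probes. At an unadjusted p under 0.05 there were 6 of 14, against 15.7% of all tested probes. Of these, FOS probes 2, 3 and 4 and JUN probe 1 were higher in hypoxia (8.75% of all probes were) and both MYC probes lower (6.91% of all). FOS probes 2 and 3 share their target, as do the MYC probes in part, so the 6 are not separate readings. The groups did not overlap on 5 of 14 probes, against 16.2% of all. Differences lay above 0 on 12 of 14 and below 0 on 2, against 54.7% and 45.3% of all. On 7 of 14 they reached 0.5 or more, against 9.08% of all. These 7 were all 4 FOS probes, JUNB probe 2 and EGR1 probes 2 and 3, so they are not separate readings either. Among the brightest probes of each gene, only that of FOS reached 0.5. The exact permutation test over the 35 splits of 3 against 4 arrays, two-sided, cannot go below 0.0571.

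FOS, the AP-1 subunit that pairs with JUN proteins, was read by 4 probes whose differences were 0.69 to 0.93, or 1.61-fold to 1.91-fold higher levels in hypoxia. Probe 1, the brightest, stood at 0.59, 0.86 and 0.30 on hypoxia replicates 1 to 3, against -0.94, 0.02, 0.41 and 0.08 on control replicates 1 to 4. The groups overlapped, since control replicate 3 lay above hypoxia replicate 3, and control replicate 1 lay far below the rest. Its difference was 0.69 (SE 0.31, adjusted p = 0.340 in limma, two-sided exact permutation p = 0.114). Without control replicate 1 it was 0.41.

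On probe 3 FOS stood at -3.05, -3.19 and -3.68 in hypoxia, against -4.78, -4.23, -3.71 and -4.23 in control. All hypoxia values lay above all control values, as on 8.77% of all probes, with a gap of only 0.04. The difference was 0.93 (SE 0.26, adjusted p = 0.202 in limma), and without control replicate 1 it was 0.75. Probe 2, shifted by 1 base, gave 0.90 (SE 0.35, adjusted p = 0.288), with an overlap between the groups.

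Probe 4, the dimmest for FOS, stood at -4.79, -5.14 and -5.46 in hypoxia and at -7.17, -5.68, -5.67 and -5.69 in control. The groups did not overlap there either, and the value of control replicate 1, which was not well above background, stood apart from the other 3 controls. The difference was 0.92 (SE 0.39, adjusted p = 0.319), against 0.55 without control replicate 1 and 0.39 with normexp background correction. Its unadjusted p in limma lay at the threshold, 0.0499, and was 0.0553 with quantile normalization. With all 4 probes averaged per array, FOS gave 0.86 (SE 0.32, adjusted p = 0.273).

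Within the control group FOS varied by more than the group difference. On probe 1 the control range was 1.35, against 0.56 in hypoxia, and control slide 3 exceeded control slide 2 by 0.70, a gap as wide as the hypoxia difference. Set against slide 2 alone, probe 1 gave 1.04 (SE 0.32, adjusted p = 0.203), and against slide 3 alone 0.34 (SE 0.21, adjusted p = 0.524), both from limma. The slide 2 mean joins control replicate 1 at -0.94 with control replicate 2 at 0.02. The latter lay close to control replicate 4 on slide 3, at 0.08. Why the control arrays differed was not tested.

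JUN, which can pair with FOS or with itself in AP-1, had a smaller but tighter difference on its brighter probe. Probe 1 stood at 2.93, 3.03 and 3.10 in hypoxia, against 2.44, 2.75, 2.69 and 2.70 in control. Every hypoxia value lay above every control value, with a gap of 0.18. The difference was 0.37, or 1.30-fold (SE 0.11, adjusted p = 0.225 in limma, exact permutation p = 0.0571, the smallest possible). Leaving out single arrays gave 0.31 to 0.42.

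JUN probe 2, from a separate stretch, stood at -0.80, -0.61 and -1.35 in hypoxia and at -1.06, -1.21, -1.12 and -1.56 in control. Here hypoxia replicate 3, the highest array on probe 1, was below 3 of the 4 controls. The difference was 0.32 (SE 0.20, adjusted p = 0.466). It was 0.16 without hypoxia replicate 2, 0.21 without control replicate 4 and 0.53 without hypoxia replicate 3. The JUN probes thus gave like mean differences while ordering the arrays differently, with r = 0.26 between them over the 7 arrays, while r was 0.90 to 0.97 among FOS probes, 0.96 for JUNB, 0.95 for MYC, 0.61 for ZFP36 and 0.27 and 0.06 between EGR1 probe 1 and EGR1 probes 2 and 3. A further probe that lists an accession in common with JUN probe 1, but no gene name, gave 0.31 (SE 0.22, adjusted p = 0.50).

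**Figure D1:**
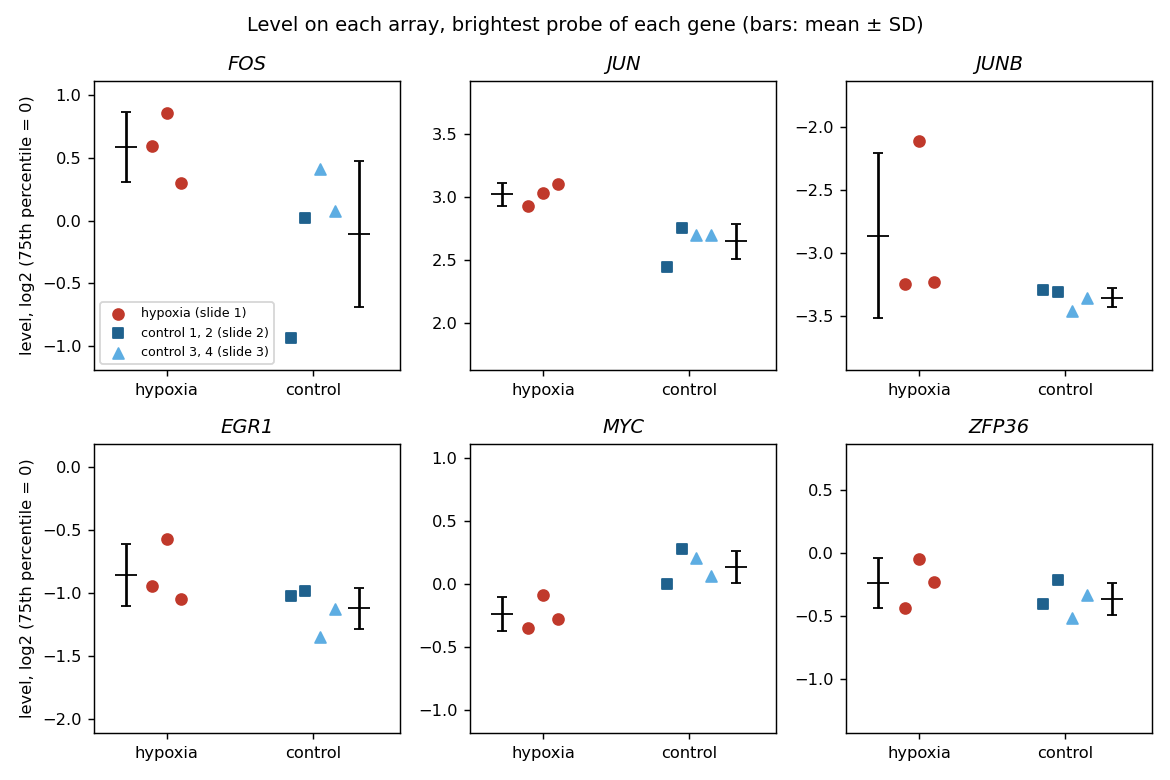
Level of the brightest probe of each gene on each array, in log2 units relative to the 75th percentile of the array, with hypoxia on the left and control on the right of each panel. Black bars are mean ± SD, and markers differ by slide. All panels span the same number of log2 units, so that the spread of FOS in control, with control replicate 1 at -0.94, and that of JUNB in hypoxia, with replicate 2 at -2.11, can be compared with the tight JUN and MYC groups.

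JUNB, a JUN relative that can take its place in AP-1, had a difference that rested on 1 fetus. Probe 1 stood at -3.24, -2.11 and -3.23 in hypoxia, against -3.29, -3.31, -3.46 and -3.36 in control. Hypoxia replicate 2 was more than 1 log2 unit above every other array, and hypoxia replicates 1 and 3 lay just above the control range. All hypoxia values were above all control values, but by 0.05. The difference was 0.49 (SE 0.27, adjusted p = 0.414 in limma), and it was 0.12 without hypoxia replicate 2. Probe 2, on the same stretch, gave 0.54 (SE 0.28, adjusted p = 0.378), and 0.17 without that array.

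EGR1, the zinc finger factor, was read by 1 bright and 2 dim probes, and they gave different accounts. Probe 1 stood at -0.95, -0.57 and -1.05 in hypoxia and at -1.02, -0.99, -1.35 and -1.12 in control. The groups overlapped, and hypoxia replicate 2 was again the highest array. Its difference was 0.27, or 1.20-fold (SE 0.15, adjusted p = 0.423 in limma), with an interval from -0.09 to 0.62, and it was 0.13 without hypoxia replicate 2.

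The dim EGR1 probes gave larger values. They rested largely on control replicate 1 for probe 2 and followed the control slides for probe 3. Probe 2 stood at -6.05, -5.29 and -5.83 in hypoxia, against -7.69, -6.22, -5.87 and -6.03 in control, a difference of 0.73 (SE 0.44, adjusted p = 0.446) that was 0.31 without control replicate 1. Probe 3, well above background on 1 of 3 hypoxia and 2 of 4 control arrays, stood at -7.00, -6.90 and -6.86 in hypoxia, against -8.45, -8.48, -7.10 and -6.99 in control. Its hypoxia values lay near those of control replicates 3 and 4 and far above those of control replicates 1 and 2, the controls on which it was not well above background. Processed signal of probe 3 was 5.91 and 5.67 on control replicates 1 and 2, against 18.41 to 21.24 on the other arrays. Its signal error reached 98.2% of the signal, and 1 of its array values was a surrogate from the extraction software. The difference of probe 3 was 0.83 (SE 0.41, adjusted p = 0.361), and 0.12 against slide 3 alone. Against slide 2 alone it was 1.54 and passed the threshold (adjusted p = 0.00945 in limma). With normexp background correction probes 2 and 3 gave 0.31 and 0.17. The bright probe did not share the slide pattern of probe 3, with controls of slide 3 below those of slide 2 by 0.23.

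MYC, the growth regulator, was the member with the opposite sign, and both of its probes showed it. Probe 1 stood at -0.34, -0.08 and -0.28 in hypoxia, against 0.00, 0.28, 0.21 and 0.06 in control. Every hypoxia value lay below every control value, as on 7.39% of all probes, with a gap of 0.08. The difference was -0.37, or 1.30-fold lower (SE 0.12, adjusted p = 0.235 in limma, exact permutation p = 0.0571, the smallest possible).

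The overlapping probe 2 stood at -0.89, -0.68 and -1.01 in hypoxia and at -0.71, -0.45, -0.38 and -0.59 in control. Only hypoxia replicate 2 and control replicate 1 crossed, by 0.03. The difference was -0.33 (SE 0.13, adjusted p = 0.294). Unlike FOS, MYC probe 1 had the same mean on both control slides, 0.14 on each, and gave -0.38 against slide 2 and -0.37 against slide 3. Leaving out single arrays gave -0.45 to -0.32.

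ZFP36, which turns over AU-rich messages, had the smallest difference among the brightest probes of the 6 genes. Probe 1 stood at -0.44, -0.05 and -0.23 in hypoxia, against -0.40, -0.22, -0.51 and -0.33 in control. The groups overlapped widely, and hypoxia replicate 2 was the highest array. The difference was 0.13 (SE 0.13, adjusted p = 0.659 in limma), with an interval from -0.18 to 0.43, and it was 0.03 without hypoxia replicate 2, 0.08 without control replicate 3 and 0.23 without hypoxia replicate 1. Probe 2, well above background on 2 of 7 arrays and so not tested, stood at -7.41, -5.91 and -7.28 in hypoxia and at -7.34, -7.72, -7.28 and -7.54 in control, with hypoxia replicate 2 above every other array.

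**Figure D2:**
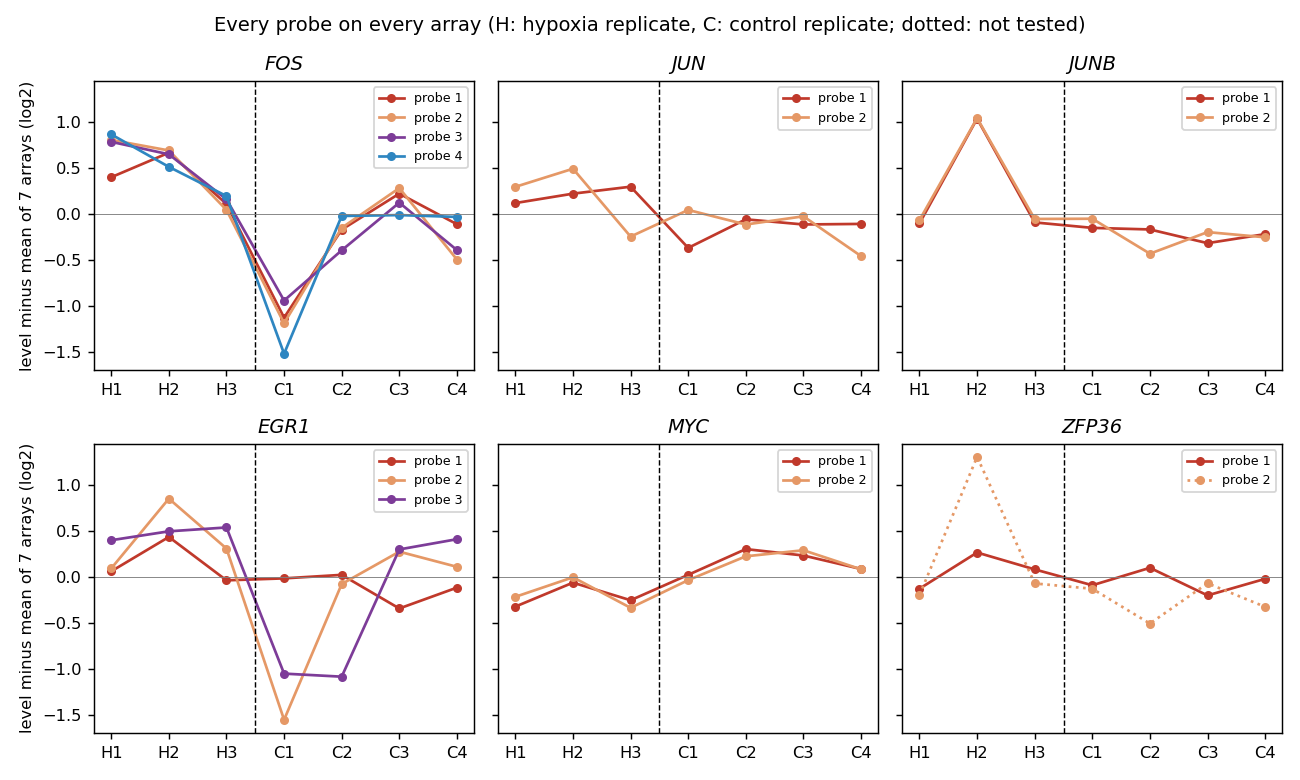
Level of each of the 15 probes on each array minus that probe's mean over the 7 arrays, in log2 units, with hypoxia arrays left of the dashed line and control arrays right of it. Lines join the values of 1 probe and stand for no order of fetuses, and the dotted line is the probe that was not tested. The FOS probes dip together on control replicate 1, the JUNB probes and ZFP36 probe 2 peak on hypoxia replicate 2, and both MYC probes lie lower on average on the hypoxia arrays.

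The same arrays stood at the extremes for several genes. Control replicate 1 was lowest on all 4 FOS probes, JUN probe 1 and EGR1 probe 2. Hypoxia replicate 2 was highest on both JUNB probes, EGR1 probes 1 and 2, both ZFP36 probes, FOS probe 1 and JUN probe 2. JUN probe 1 and MYC probe 1 separated the groups with little spread inside them.

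**Figure D3:**
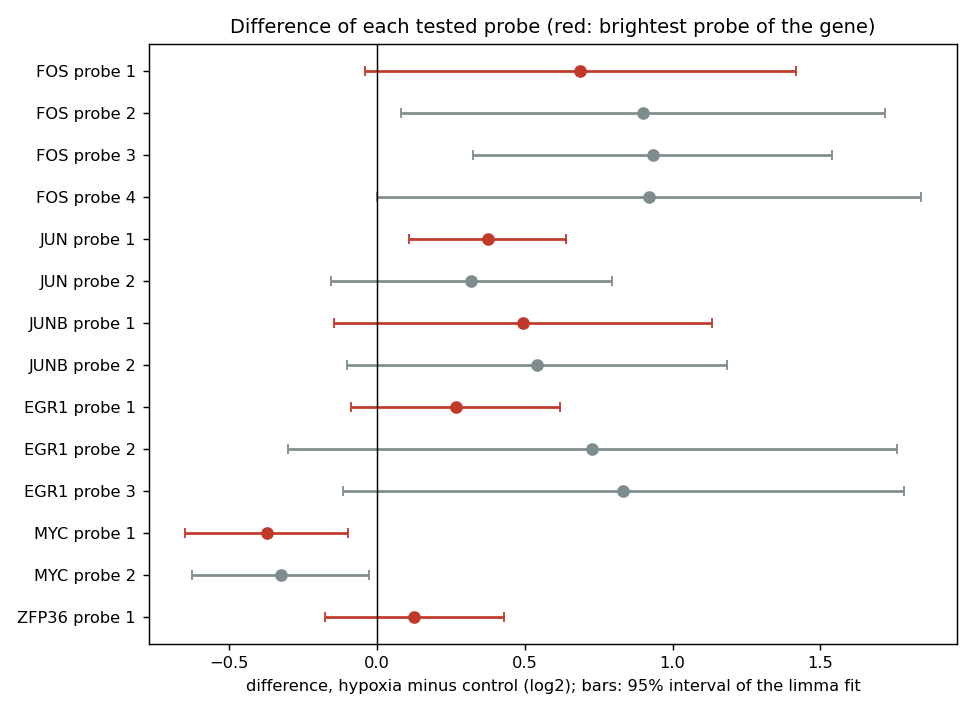
Difference in level, hypoxia minus control, of the 14 tested probes on the log2 scale, with the 95% interval of the limma fit, unadjusted, and the brightest probe of each gene in red. The intervals of FOS probes 2 to 4, JUN probe 1 and both MYC probes leave out 0, that of FOS probe 4 by only 0.00035. The interval of FOS probe 1 reaches from -0.04 to 1.42.

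Similarity of pattern was described by Pearson's r of levels over the 7 arrays against 784 named genes outside the members, taking the 3 highest for each. These values were selected as the highest, carry no test, and share arrays and slides with the group difference. For FOS probe 1 they were CD9, a tetraspanin (r = 0.99), TKDP1, a trophoblast Kunitz protein (0.98), and the integrin gene ITGB6 (0.93). For JUN they were the growth factor receptor gene FGFR2 (0.97), GGTA1 (0.96) and the prostaglandin receptor gene PTGER4 (0.95). Under other scalings or with 1 array left out, r fell as low as 0.61 for ITGB6, 0.74 for FGFR2 and 0.68 for GGTA1.

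JUNB was most like CXCL8, the neutrophil chemokine interleukin 8 (r = 0.98), a probe named only UNC (0.97) and the interferon-linked factor IRF1 (0.93). CXCL8 stood at -4.85, -1.20 and -4.54 in hypoxia, against -5.16, -4.48, -5.25 and -4.76 in control, so that it too peaked on hypoxia replicate 2, and its difference of 1.38 (SE 0.82, adjusted p = 0.436 in limma) was 0.22 without that array. The other tested CXCL8 probe, which is dimmer, gave a difference of 2.63. Without hypoxia replicate 2 r was 0.56 for CXCL8 and -0.27 for IRF1, so both rested largely on that fetus. EGR1 was most like TIMP2 (0.98), CTNNBL1 (0.91) and ATP1B1 (0.90), and ZFP36 like DDIT3 (0.94), IL3 (0.90) and a gene the array calls cyclophilin B (0.90). With normexp background correction r was 0.43 for PTGER4 and 0.24 for cyclophilin B. Under other scalings or with 1 array left out, r fell as low as 0.65 for IL3, 0.70 for CTNNBL1 and 0.69 for ATP1B1. MYC was most like PLIN2, a lipid droplet protein (0.91), the cell cycle kinase gene CDK4 (0.90) and the T-cell gene CD3E (0.90).

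Other genes of the pathway were taken from lists of known members. Over all 12711 tested probes the median difference was 0.03, with 54.7% above 0. None of the list genes below passed the adjusted threshold in limma. Of the other AP-1 and ATF subunits, 4 were tested, 2 of them higher, with a median of 0.01 and none at an unadjusted p under 0.05. JUND, a JUN relative that is made at a steady rate, had -0.06 (SE 0.13, adjusted p = 0.863), and its sign turned without hypoxia replicate 3 or control replicate 2. ATF4 and ATF6, factors of the stress response, had 0.17 (SE 0.19) and 0.07 (SE 0.16). That of ATF4 was 0.05 without hypoxia replicate 2 and 0.33 without hypoxia replicate 3. The sign of ATF6 turned with quantile normalization, against slide 3 alone and without control replicate 1.

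Of the other immediate early genes, 10 were tested, 6 of them higher, with a median of 0.24, and 3 were higher and 0 lower at an unadjusted p under 0.05, against 8.75% and 6.91% of all tested probes. NFKBIA, the inhibitor of NF-kB, stood at 1.78, 2.76 and 0.94 in hypoxia, against 0.37, 0.67, 0.43 and 0.24 in control, a difference of 1.40 (SE 0.38, adjusted p = 0.197). All hypoxia values lay above all control values, with hypoxia replicate 2 highest, and without it the difference was 0.93. CREM, a cAMP-responsive factor, had 0.44 (SE 0.13, adjusted p = 0.215) and BHLHE40, a clock-linked repressor, 0.32 (SE 0.11, adjusted p = 0.256), with non-overlapping groups for both.

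Upstream signalling genes numbered 5, of which 3 were higher, with a median of 0.04, and CALM2 and EGFR were higher at an unadjusted p under 0.05, as were 8.75% of all tested probes. CALM2, a calmodulin gene, had 0.33 (SE 0.12, adjusted p = 0.266), the receptor gene EGFR 0.43 (SE 0.18, adjusted p = 0.308) and PRKAR1A, a regulatory subunit of protein kinase A, 0.04 (SE 0.10). That of EGFR was 0.24 without hypoxia replicate 3, and PRKAR1A turned sign without hypoxia replicate 2. The MYC partner list left only AURKA, a mitotic kinase that can stabilise MYC-family proteins, at -0.13 (SE 0.25), which turned sign without hypoxia replicate 1 or 2. Of 6 MYC-linked growth genes, 3 were lower, with a median of -0.01. CDK4 had -0.20 (SE 0.09, adjusted p = 0.334), with all hypoxia values below all controls. The cyclin gene CCND2 had 0.24 (SE 0.14), with overlapping groups.

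Of 14 messages in the ZFP36 and AU-rich list, 9 were higher, with a median of 0.18. At an unadjusted p under 0.05, 2 of the 14 were called, a share near the 15.7% of all tested probes. Ordered by p, NFKBIA, described above, came first, followed by the chemokine gene CXCL1 at 0.50 (SE 0.15, adjusted p = 0.209), its groups apart, and the cytokine gene IL1B at 0.40 (SE 0.19, adjusted p = 0.359), its groups overlapping. IL1B was 0.22 without hypoxia replicate 1.

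Of 17 AP-1 and EGR1 target genes, 10 were higher, with a median of 0.09, and 3 were higher and 2 lower at an unadjusted p under 0.05, against 8.75% and 6.91% of all tested probes. TIMP1, a metalloproteinase inhibitor, stood at 1.91, 2.16 and 2.43 in hypoxia, against 2.85, 2.75, 3.01 and 3.04 in control, with all hypoxia values lower. The TIMP1 difference was -0.74 (SE 0.15, adjusted p = 0.124), and -0.72 on the second TIMP1 probe. EDN1, the vasoconstrictor endothelin 1, stood at -0.89, 0.14 and -0.50 in hypoxia, against -1.70, -1.55, -1.29 and -2.29 in control, a difference of 1.29 (SE 0.30, adjusted p = 0.163). VIM, an intermediate filament gene, had -0.49 (SE 0.16, adjusted p = 0.235). The remaining 2 at an unadjusted p under 0.05, named after their values were seen, were PLAUR and LHB, of which LHB is a pituitary hormone gene. Pituitary markers (4 tested, LHB among them) averaged -1.01 to 0.33 in hypoxia and -1.44 to 1.11 in control as centred levels. TIMP1 and VIM are also meningeal and fibroblast markers. The 7 tested genes of that marker list had differences below 0, with a median of -0.69. Of them, 4 were lower at an unadjusted p under 0.05, as were 6.91% of all tested probes. List means of centred levels were -0.72 to -0.07 in hypoxia and -0.19 to 0.54 in control, and all 7 genes were well above background on every array. Their part in these results was not tested.

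**Figure D4:**
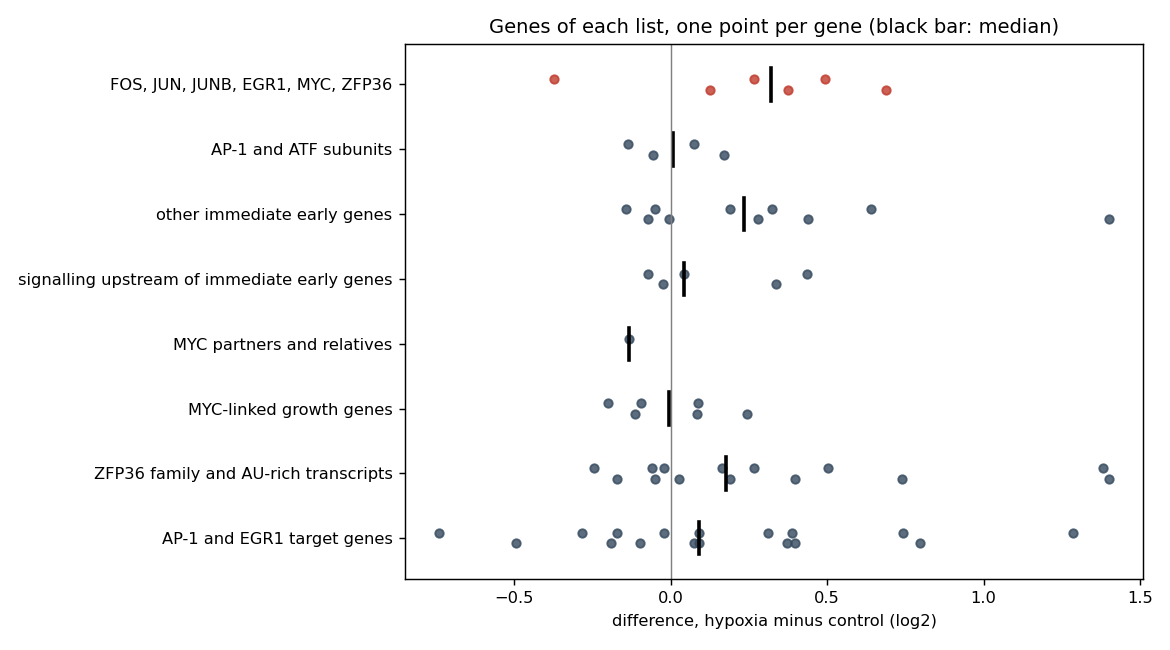
Difference in level, hypoxia minus control, on the log2 scale for the brightest probe of each member gene (top row) and of each tested gene in the pathway lists, with the median as a black bar. NFKBIA at 1.40, CXCL8 at 1.38 (0.22 without hypoxia replicate 2) and EDN1 at 1.29 lie furthest to the right and TIMP1 at -0.74 furthest to the left, while the other AP-1 and ATF subunits stay between -0.14 and 0.17.

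Markers of other cells were set beside the members. Astrocyte markers (5 tested, VIM among them) averaged 0.08 to 0.22 in hypoxia and -0.45 to 0.13 in control as centred levels, and the microglial list (2 tested, CD14 and ITGAM) averaged -0.02 to 0.22 in hypoxia and -0.46 to 0.08 in control. Of the astrocyte markers 4 had differences above 0, with a median difference of 0.45. At an unadjusted p under 0.05 there were 3 of the 5, VIM, the lower one, among them, against 15.7% of all tested probes. In both lists control replicate 1 was the lowest array, as it was for FOS and in the hypothalamic marker list (-0.31). It was not the lowest in the endothelial (0.25), meningeal (0.28), red cell (0.15) or pituitary (0.02) lists. Endothelial markers (3 tested) lay at -0.40 to 0.05 in hypoxia and -0.12 to 0.26 in control, and no neuronal or oligodendrocyte marker of the lists was named and tested. The part of these markers in the FOS values was not tested.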

How the data were processed

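Labelling used Cy3 and 1 colour, per the labels' protocols. Spot intensity values were extracted by the authors with Agilent Feature Extraction 10.1.1.1, per the file headers, which subtracted background and detrended within each array. The log2 values that the authors deposited equal the log2 of that processed intensity on every array within rounding, unscaled and uncentred, with array medians of 8.42 to 8.99.

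From these, each array was scaled on the log2 scale to its own 75th percentile, control spots left out. Outlier spots were dropped and saturated ones kept. A probe was tested if any 3 or more of the 7 arrays had it well above background, which left 12711 of 15008. The test was limma 3.58.1 under R 4.3.3 (lmFit, eBayes, two-sided, Benjamini-Hochberg). The brightest probe stands for a gene. Genes were named from RefSeq accessions (727 probes), symbols that the ARS-UI_Ramb_v3.0 table also holds (498), synonyms (20), older names (2), 1 description, and names found only in the files (220), while 13540 probes were unnamed here. No genome coordinates are given because the files name no build.

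The named genes were the members, the 3 genes with the smallest unadjusted p in each list, and the 3 of highest r with each member. One gene that this rule names is not reported here. The members and lists were chosen with earlier results of these data known. Nothing in the labels says that samples of a group came from separate litters, and the number of arrays limits precision. The scripts were tested on simulated data. Alternatives were other scalings, normexp with an offset of 50, the deposited values, other filters, a random slide block, the controls of either slide by themselves, blocking on replicate number, a trended robust prior, other probes and leaving out each array.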

Additional observations from a re-analysis of the deposited data

Results flagged for a closer look

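One control value stood far from the others of its group. FOS probe 4 had a level of -7.17 in control replicate 1, where its spot was not well above background. The remaining 3 controls lay between -5.69 and -5.67. Among 33 sets of 4 control values examined, 1 had such a value, and chance gives about 1.65.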

How the results depend on the processing

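All 14 tested member probes kept their direction under each alternative that gave a value, and their adjusted p in limma stayed above 0.05 in all but 1 case, EGR1 probe 3 against slide 2 alone (1.54, adjusted p = 0.00945). Leaving out single arrays gave 0.41 to 0.86 for FOS, 0.31 to 0.42 for JUN, 0.12 to 0.69 for JUNB, 0.13 to 0.36 for EGR1, -0.45 to -0.32 for MYC and 0.03 to 0.23 for ZFP36. The count of member probes at an unadjusted p under 0.05, which was 6, was 2 with the deposited log2 values, and 3 to 7 when 1 array was left out, with 3 without hypoxia replicate 1. Over all probes, 2 passed the adjusted threshold. That count was 0 with quantile normalization, with the 75th percentile taken over probes detected on every array, with no filter on dim probes and with the replicate block, 10 with normexp and with the deposited log2 values, 25 over probes well above background on all arrays, 57 with a trended and robust prior, 232 against slide 2 alone, 4 against slide 3 alone, and 0 to 6 when 1 array was left out. At an unadjusted p under 0.05, 1112 of 1990 probes were higher, against 660 of 981 in the deposited values, 914 of 1946 after quantile normalization and 932 of 2001 after scaling to the median. Slide as a random block had an estimated correlation of -0.03 and so made no allowance for slides. Deviations of same-numbered hypoxia and control arrays correlated at 0.12, 0.09 and 0.11, not all over 0.1, so the numbers were not taken as pairs, though every hypoxia array correlated best with its own number, a hint from the data and not from the design. The replicate block left out control replicate 4, which has no hypoxia array of its number. With it FOS gave 0.75 and MYC -0.40, the same differences as without control replicate 4 and no block. Signs turned for ATF6, which gave -0.11 with quantile normalization, -0.0099 against slide 3 alone and -0.034 to 0.17 when 1 array was left out. With 1 array left out, JUND gave -0.13 to 0.021, PRKAR1A -0.0078 to 0.11 and AURKA -0.43 to 0.023, and the r of IRF1 with JUNB was -0.27 to 0.96. Under normexp r was 0.43 for PTGER4 with JUN and 0.24 for cyclophilin B with ZFP36. The causes of these shifts were not tested. Signal near background limits FOS probe 4, EGR1 probes 2 and 3 and ZFP36 probe 2.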
